A study of Homo sapiens with 15 samples.

Results

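The expression of 16005 genes was compared between A549 cells kept in hypoxia with the compound BB2-282 and A549 cells kept in hypoxia with vehicle. A549 is an established human lung adenocarcinoma line, and the comparison used 6 of the 15 arrays of the series, 3 for each of these groups. The cultures with BB2-282 received 10 µM of the compound in medium with 0.1% DMSO, and the hypoxic vehicle cultures received 0.1% DMSO alone. After 6 h hypoxia was started in a gas-pack pouch and lasted 42 h. The other 9 arrays held BB2-125 in hypoxia, BB2-162 in hypoxia, both at 10 µM, and normoxic vehicle, with 3 cultures each. Cultures of 1 group are labelled biological replicates with nothing further on how they were made, so each p-value weighs a difference against their spread only. No culture received a compound in normoxia, so an action on the hypoxic response and an action on the cells at large cannot be told apart. The title of the series presents the compounds as modulators of hypoxia-inducible factor (HIF), and the comparison asks which transcripts BB2-282 changed in hypoxic cells.

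HIF is a transcription factor of an oxygen-regulated alpha subunit and a constant beta subunit. In low oxygen the alpha subunit escapes prolyl hydroxylation and degradation, pairs with the beta subunit, binds short DNA elements and calls on the coactivators p300 and CBP. Its targets supply glucose uptake, glycolysis, new vessels and matrix remodelling. The small noncoding RNAs on the array do other work: H/ACA box small nucleolar RNAs (snoRNAs) guide the conversion of uridine to pseudouridine, C/D box snoRNAs guide ribose methylation, Cajal body RNAs do both on spliceosomal RNAs, and spliceosomal RNAs form the core of the splicing machinery.

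Each value below is the log2 of a deposited intensity, and each change is BB2-282 minus hypoxic vehicle on that scale, with the standard error of the limma fit after ± and n = 3 arrays in each group. Genes with an adjusted p under 0.05 are called, where the Benjamini-Hochberg adjustment runs over all 16005 genes. Array medians lay between 74.91 and 84.6 intensity units. The root mean square deviation from the group mean ran from 0.094 to 0.113 for the BB2-282 arrays and from 0.116 to 0.149 for the hypoxic vehicle arrays. Replicate 1 of BB2-162 stood apart from its group at 0.221. Of 6 epithelial markers, 5 lay above the array median with BB2-282, with keratins KRT7, KRT8 and KRT18 between 12.05 and 12.38. EPCAM lay at 5.16. Of 6 measured alveolar type II markers 2 lay above the array median, of 9 fibroblast markers 3 did, and of 8 leukocyte and 8 endothelial markers 1 each did. No alveolar, leukocyte or endothelial marker was called. KRT8 fell by 0.35 ± 0.10, and the log2 of the summed epithelial markers ran from 13.89 to 14.10 with BB2-282 and from 14.10 to 14.22 in hypoxic vehicle. Among 5 tested fibroblast markers COL1A1 rose by 0.35 ± 0.10. The log2 of the sum of all 9 measured fibroblast markers ran from 9.16 to 9.25 with BB2-282 and from 8.95 to 9.16 in hypoxic vehicle. The calls of KRT8 and COL1A1 each ended without replicate 1 or 2 of BB2-282 or of the hypoxic vehicle, with adjusted p from 0.055 to 0.122 for KRT8 and from 0.0808 to 0.182 for COL1A1, and that of KRT8 also after quantile normalization (adjusted p = 0.144). The part of other cell types in the results was not tested.

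BB2-282 changed 2176 of the 16005 genes, which is 13.6%, with 905 higher (5.65%) and 1271 lower (7.94%). At least 2-fold changes were fewer: 64 genes rose and 93 fell by that much, 0.981% of those tested, and small noncoding RNAs were 29 of those 64 rises. The median change over all genes was 0.02. The number called rested on the arrays used: it was 1258 without replicate 2 of BB2-282, 1222 without replicate 1 of the hypoxic vehicle and 1352 without replicate 2 of the hypoxic vehicle. The same fit called 4539 genes (28.4%) for BB2-125 and 5780 genes (36.1%) for BB2-162 against the same vehicle arrays, and 9207 genes (57.5%) for hypoxic against normoxic vehicle.

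**Figure D1:**
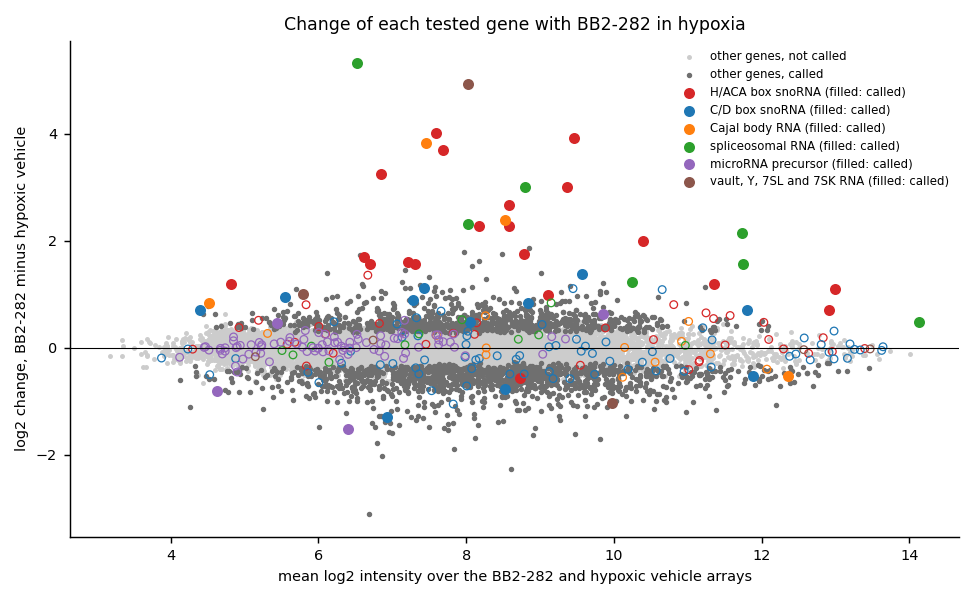
Change of each tested gene with BB2-282 in hypoxia. The horizontal axis is the mean log2 intensity over the BB2-282 and hypoxic vehicle arrays and the vertical axis the log2 change, BB2-282 minus hypoxic vehicle; colours mark the small RNA classes, filled where called. The points above a change of 2 are H/ACA snoRNAs, spliceosomal RNAs, Cajal body RNAs and VTRNA1-1, and the lowest point is FGB at -3.10.

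The largest rises with BB2-282 were all in small noncoding RNA genes. RNU5D-1, a gene of the U5 spliceosomal RNA, had 9.48, 9.89 and 8.15 with BB2-282 and 3.92, 4.0 and 3.66 in hypoxic vehicle. The groups lay far apart, and the vehicle level was below the 25th percentile of its arrays. The fitted change was 5.31 ± 0.59 (adjusted p = 1.4e-05), and counted from that percentile the rise was at least 4.47. VTRNA1-1, a small RNA of the vault particle, had 10.37, 10.88 and 10.19 with BB2-282 and 6.08, 5.11 and 5.49 in hypoxic vehicle, a rise of 4.92 ± 0.47 (30.3-fold, adjusted p = 2.88e-06). No BB2-282 array came near a vehicle array, though the choice of the largest small RNA rises required groups that do not overlap.

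The next largest were H/ACA and Cajal body RNAs. SNORA46 had 9.93, 9.85 and 9.03 with BB2-282 and 5.48, 5.56 and 5.72 in hypoxic vehicle, a rise of 4.02 ± 0.29 (16.2-fold). SNORA65 had 11.70, 11.67 and 10.92 with BB2-282 and 7.34, 7.29 and 7.88 in hypoxic vehicle, a rise of 3.93 ± 0.33. In both the third BB2-282 array was the lowest of its group and still more than 2-fold above each vehicle array. SCARNA4, a Cajal body RNA, had 9.30, 9.32 and 9.47 with BB2-282 and 5.66, 5.62 and 5.35 in hypoxic vehicle. It rose by 3.82 ± 0.19 (14.1-fold, adjusted p = 9.66e-10), with the smallest spread of these genes.

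**Figure D2:**
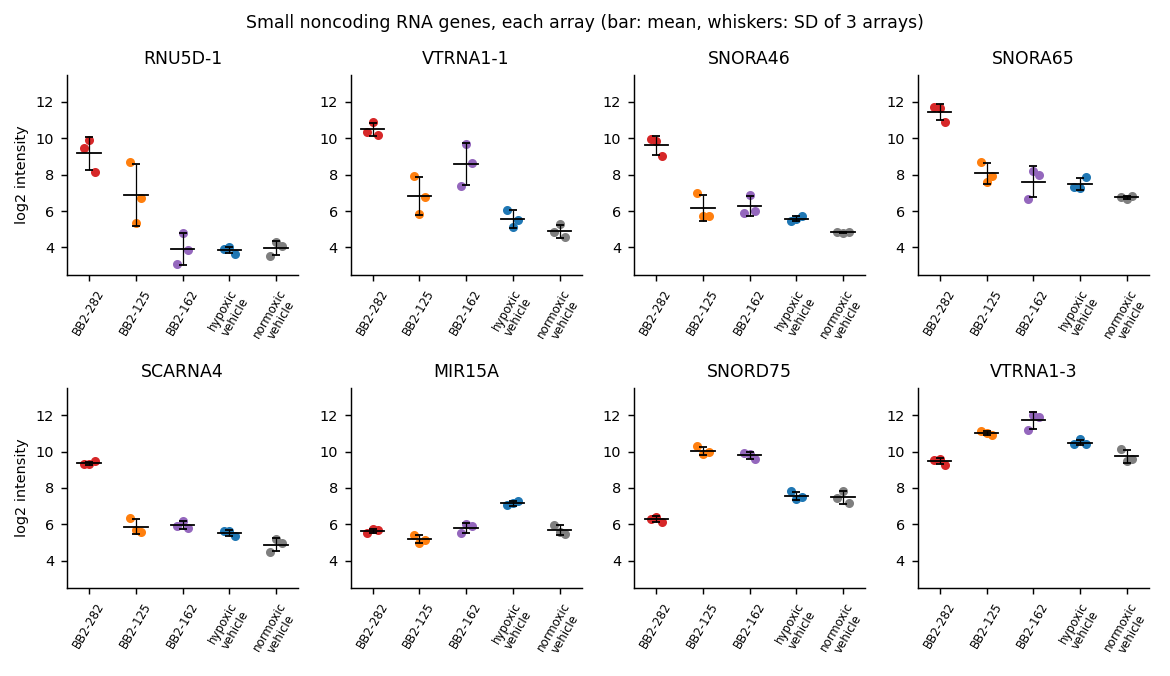
Log2 intensity of 8 small noncoding RNA genes on each array, by group; points are arrays, bars are means and whiskers the SD of 3 arrays. The 3 BB2-282 arrays stand above all others in SNORA46, SNORA65 and SCARNA4, and below the hypoxic vehicle arrays in MIR15A, SNORD75 and VTRNA1-3.

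The rise was spread unevenly over the classes. Of 54 H/ACA box snoRNAs tested, 19 rose and 1 fell (35.2% and 1.85%, against 5.65% and 7.94% of all genes), with a median change of 0.47. The median H/ACA level was 9.89, 9.82 and 9.09 on the BB2-282 arrays and 7.94, 7.62 and 7.91 on the hypoxic vehicle arrays. Other small RNA genes are named after their values were seen. Among H/ACA RNAs, rises were found for SNORA75 (3.70 ± 0.25), SNORA41 (3.25 ± 0.23), SNORA80E (3.01 ± 0.33) and SNORA6 (2.66 ± 0.37), while SNORA5A fell by 0.57 ± 0.17. The call of SNORA5A ended without replicate 2 (adjusted p = 0.0692) or 3 of BB2-282 (adjusted p = 0.148), without replicate 1 (adjusted p = 0.144) or 2 of the hypoxic vehicle (adjusted p = 0.102) and after quantile normalization (adjusted p = 0.0505). Of 84 C/D box snoRNAs, 8 rose and 3 fell (9.52% and 3.57%), and their median change was -0.11. The highest C/D rise was SNORD83B at 1.39 ± 0.29. The 2 snoRNA classes thus differed in how many members were called upward and in their medians; no test was made between them.

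Of 18 spliceosomal RNA genes, 7 rose and 0 fell (38.9% and 0%, against 5.65% and 7.94% of all genes), with a median of 0.37. Besides RNU5D-1 these were the U4 genes RNU4-2 (2.99 ± 0.47) and RNU4-1 (2.14 ± 0.29), the minor spliceosome gene RNU6ATAC (2.32 ± 0.26), RNU5E-1 (1.56 ± 0.27), RNVU1-1 (1.23 ± 0.17) and the U2 gene RNU2-1 (0.47 ± 0.14). RNU2-1 lost its call when any array but replicate 3 of the hypoxic vehicle was left out (adjusted p from 0.0603 to 0.0825), and its change was 0.06 after quantile normalization (adjusted p = 0.834). Copies of 1 spliceosomal RNA are near-identical, and the array may not separate them. Of 16 Cajal body RNAs 3 rose and 1 fell (18.8% and 6.25%), with SCARNA8 at 2.39 ± 0.31 and SCARNA12 at -0.52 ± 0.12. Among 7 vault, Y, 7SL and 7SK genes 2 rose and 1 fell (28.6% and 14.3%). VTRNA1-1 and VTRNA1-2 (1.0 ± 0.24) rose and VTRNA1-3 fell by 1.03 ± 0.19. Its values were 9.54, 9.57 and 9.26 with BB2-282 and 10.41, 10.66 and 10.39 in hypoxic vehicle, so the vault RNA genes did not all change in the same direction. The call of VTRNA1-2 ended without replicate 2 of BB2-282 (adjusted p = 0.0636), and that of SCARNA12 without replicate 3 of BB2-282 (adjusted p = 0.0521).

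Transcript length and the genes around them were set beside these changes, with the 88 microRNA precursors left out of the lengths. Of 81 of the other small RNA genes of up to 100 bases, 9 rose and 4 fell. Of 73 genes of over 100 and up to 150 bases, 24 rose and 1 fell, and of 25 longer genes 6 rose and 1 fell. Median changes were -0.12, 0.40 and 0.12 in the same order of length. The RNA was isolated on a silica column, and the part of length-dependent recovery in these rises was not tested. Of the risen small RNA genes, 25 lie inside the span of a tested gene, on either strand. Of the 22 spanning genes 2 rose, 4 fell and 16 were not called, with a median change of -0.08. Spanning genes were taken by position alone, so not each need be a host gene. CNOT1, which spans SNORA46, changed by 0.00, NCL, which spans SNORA75, by 0.13, and RPL12, which spans SNORA65, by -0.13, none of them called.

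Small RNA genes also rose with the other compounds against the same vehicle arrays, and single arrays were uneven. Of 267 tested, 41 rose and 8 fell with BB2-282, 29 and 24 with BB2-125, and 68 and 1 with BB2-162. Of all 16005 genes 2135 rose and 2404 fell with BB2-125, and 2511 and 3269 with BB2-162. Of 54 H/ACA RNAs 4 rose with BB2-125 and 11 with BB2-162, and of 18 spliceosomal RNAs 6 and 4, with 0 falls. VTRNA1-1 had 7.92, 5.82 and 6.76 with BB2-125 and 7.40, 9.71 and 8.62 with BB2-162, and RNU5D-1 had 8.70, 5.32 and 6.69 with BB2-125. Against vehicle, rises were called for VTRNA1-1 with BB2-162 (3.01 ± 0.47, adjusted p = 8.33e-05) and RNU5D-1 with BB2-125 (3.04 ± 0.59, adjusted p = 0.000661). VTRNA1-1 with BB2-125 and RNU5D-1 with BB2-162 were not called (adjusted p = 0.0522 and 0.954). The median H/ACA level ran from 7.67 to 8.75 with BB2-125 and from 7.89 to 8.58 with BB2-162, below all 3 BB2-282 arrays.

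Of 88 microRNA precursor genes 2 rose and 2 fell, with a median change of 0.03. These shares of 2.27% each lay below the 5.65% and 7.94% of all genes. The array probes read the precursor locus and not the mature strand. The mature strands that RefSeq lists for the 4 called genes are shown to identify them, on GRCh38.p14, 5′ to 3′, with the seed (bases 2 to 8) in capitals. The 7 seeds all differ, but those of hsa-miR-15a-5p and hsa-miR-103a-3p share the bases GCAGCA.
hsa-miR-15a-5p (MIR15A, chr13:50049167-50049188, minus strand): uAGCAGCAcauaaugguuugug
hsa-miR-15a-3p (MIR15A, chr13:50049130-50049151, minus strand): cAGGCCAUauugugcugccuca
hsa-miR-103a-3p (MIR103A2, chr20:3917541-3917563, plus strand): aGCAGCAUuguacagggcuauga
hsa-miR-103a-2-5p (MIR103A2, chr20:3917504-3917526, plus strand): aGCUUCUUuacagugcugccuug
hsa-miR-21-5p (MIR21, chr17:59841273-59841294, plus strand): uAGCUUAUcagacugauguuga
hsa-miR-132-3p (MIR132, chr17:2049929-2049950, minus strand): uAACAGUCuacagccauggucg
hsa-miR-132-5p (MIR132, chr17:2049965-2049986, minus strand): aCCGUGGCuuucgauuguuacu

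MIR15A, whose microRNA restrains BCL2, had 5.53, 5.75 and 5.66 with BB2-282 and 7.04, 7.14 and 7.30 in hypoxic vehicle. It fell by 1.51 ± 0.15 (adjusted p = 3.67e-06), and its groups did not overlap, which the choice of the largest small RNA falls required. DLEU2, the noncoding host gene of MIR15A, fell by 0.83. MIR103A2 fell by 0.80 ± 0.15 to a level below the 25th percentile, and counted from that percentile the fall was at least 0.31. MIR21, an abundant microRNA gene in many tumours, had 10.09, 10.21 and 10.22 with BB2-282 and 9.38, 9.85 and 9.41 in hypoxic vehicle, a rise of 0.63 ± 0.12. VMP1, a gene of autophagosome formation that spans MIR21, fell by 0.77. MIR132 rose by 0.46 ± 0.12, a call that ended without replicate 1 of BB2-282 (adjusted p = 0.0804) or of the hypoxic vehicle (adjusted p = 0.0681). Among snoRNAs the largest fall was SNORD75, with 6.32, 6.42 and 6.11 with BB2-282 and 7.81, 7.38 and 7.52 in hypoxic vehicle (-1.28 ± 0.16). SNORD116-21 had a change of -0.77 ± 0.22 (adjusted p = 0.0231). Its call ended without replicate 1 (adjusted p = 0.0565) or replicate 3 of BB2-282 (adjusted p = 0.113), and without replicate 1 (adjusted p = 0.0625) or replicate 2 of the hypoxic vehicle (adjusted p = 0.0916).

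Of 14875 protein-coding genes 854 rose and 1232 fell (5.74% and 8.28%, near the 5.65% and 7.94% of all genes). The rises included adhesion, matrix and secreted products. MUC12, a membrane mucin, had 9.32, 9.68 and 10.32 with BB2-282 and 7.69, 8.36 and 7.70 in hypoxic vehicle (1.86 ± 0.24, adjusted p = 5.81e-05). ICAM1, an adhesion molecule that binds leukocyte integrins, had 8.77, 8.90 and 8.91 with BB2-282 and 6.86, 7.14 and 7.22 in hypoxic vehicle. Its rise was 1.79 ± 0.10, or 3.45-fold (adjusted p = 5.2e-09), with tight groups that did not overlap.

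LOX, the secreted enzyme that cross-links collagen and elastin, had 9.36, 9.33 and 9.40 with BB2-282 and 7.68, 7.99 and 7.14 in hypoxic vehicle. The rise of 1.76 ± 0.16 (3.39-fold, adjusted p = 1.01e-06) took it further above the normoxic vehicle arrays, at 4.82, 4.75 and 4.53. LOX is a HIF target, and the 250 bases before its start (GRCh38.p14, chr5:122078260-122078509, minus strand, RefSeq) hold the hypoxia response cores ACGTG or GCGTG, on either strand, at 4 places, in capitals:
LOX: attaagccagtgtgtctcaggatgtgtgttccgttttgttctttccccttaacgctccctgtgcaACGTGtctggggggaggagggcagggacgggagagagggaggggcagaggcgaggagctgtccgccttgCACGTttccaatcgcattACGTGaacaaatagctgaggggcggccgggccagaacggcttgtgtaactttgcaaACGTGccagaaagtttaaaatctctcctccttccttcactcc
Of 35116 such windows in the RefSeq table, 43.2% hold a core, so a match alone is common. Of 14 called HIF targets 11 had a window in the table and 8 of those held a core. Over all 11, EGLN3 and LIMCH1, which fell, and P4HA2, which rose, held 0. A core was held by EDN1, IGFBP3, BNIP3, RIMKLA, P4HA1 and TFRC, which fell, and by LOX and VLDLR, which rose.

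Other large rises were HOXD10, a homeobox transcription factor (9.06, 8.97 and 8.95 with BB2-282, against 7.32, 7.55 and 7.23 in hypoxic vehicle, 1.63 ± 0.13), and PDGFB, a growth factor of pericytes and fibroblasts (9.62, 9.84 and 9.64 with BB2-282, against 8.18, 8.29 and 8.46, 1.39 ± 0.10). NPTX1, a neuronal pentraxin, rose by 1.53 ± 0.09, with BB2-282 arrays between 8.82 and 8.85 and vehicle arrays between 7.17 and 7.40. The remaining 6 of the 12 largest were CA8 (1.73 ± 0.13), COXFA4L3 (1.46 ± 0.20), PDE11A, a cyclic nucleotide phosphodiesterase (1.40 ± 0.14), L1CAM, an adhesion molecule of neurons and carcinomas (1.32 ± 0.15), TAGLN, an actin-binding protein (1.29 ± 0.10), and RBMS3, an RNA-binding protein (1.23 ± 0.14). The 12 were taken from called genes whose groups did not overlap, so their separation was set by that choice; groups did not overlap in 31.4% of all tested genes.

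**Figure D3:**
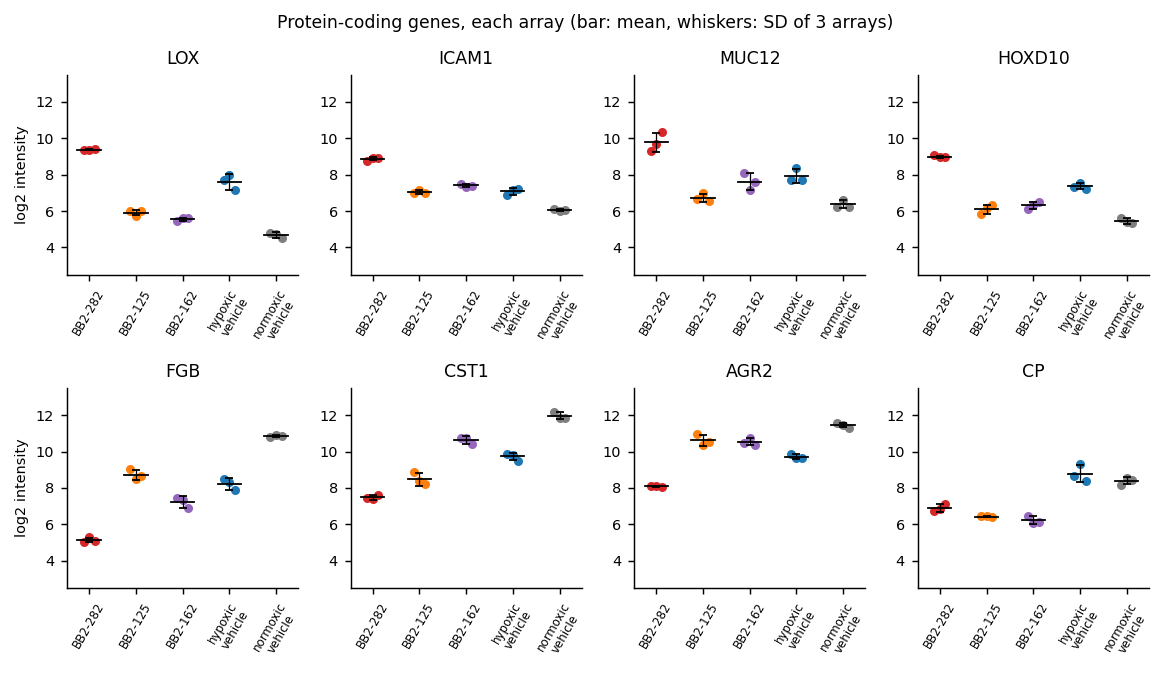
Log2 intensity of 8 protein-coding genes on each array, by group; points are arrays, bars are means and whiskers the SD of 3 arrays. LOX, ICAM1, MUC12 and HOXD10 stand highest with BB2-282, and AGR2 stands lowest with BB2-282.

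Secreted proteins were among the largest falls, beside membrane, nuclear and other intracellular products. FGB, the fibrinogen beta chain, had 5.05, 5.29 and 5.07 with BB2-282 and 8.52, 8.33 and 7.88 in hypoxic vehicle. It fell by 3.10 ± 0.17 on the log2 scale (adjusted p = 3.51e-09), and the normoxic vehicle arrays stood at 10.78, 10.91 and 10.83. FGA, the alpha chain, fell by 1.40 ± 0.12. CST1, a secreted inhibitor of cysteine proteases, had 7.44, 7.37 and 7.61 with BB2-282 and 9.86, 9.83 and 9.51 in hypoxic vehicle (-2.25 ± 0.16). CP, the copper-carrying ferroxidase ceruloplasmin, had 6.73, 6.84 and 7.12 with BB2-282 and 8.63, 9.31 and 8.40 in hypoxic vehicle (-1.89 ± 0.18). In FGB, CST1 and CP every BB2-282 array lay below every vehicle array, which the choice of the largest falls required.

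Among 16 tested genes of fibrinogen, complement and the acute phase, 5 fell and 1 rose, and the median was -0.06. These are 31.2% and 6.25%, against 7.94% and 5.65% of all genes. The complement gene C3 was the rise, at 0.84 ± 0.15. The fibrinogen genes are known targets of the liver transcription factor HNF1. Its core GTTAAT, on either strand, was searched after the falls were seen. Of the 6 called genes of this list 4 had a window of 250 bases in the table and 3 of those held the core. Over all 35116 windows the share was 6.23%. Genes and core were both chosen after the values were seen, so these counts are no test of HNF1. Its part in the falls was not tested. It occurs once before FGA, before FGB and before CFI, and 0 times before FGG, the fibrinogen gamma chain gene, which also fell (-1.11 ± 0.21, and by at least 0.10 counted from the 25th percentile, below which it lay with BB2-282). The windows of FGA and FGB are printed with the core, read on the opposite strand, in capitals (GRCh38.p14, FGA on the minus strand of chr4:154590743-154590992, FGB on the plus strand of chr4:154562730-154562979, RefSeq):
FGA: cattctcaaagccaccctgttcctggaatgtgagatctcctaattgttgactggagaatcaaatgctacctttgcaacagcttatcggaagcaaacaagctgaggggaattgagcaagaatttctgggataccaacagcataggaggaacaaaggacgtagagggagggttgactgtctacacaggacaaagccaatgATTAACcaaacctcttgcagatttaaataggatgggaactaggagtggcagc
FGB: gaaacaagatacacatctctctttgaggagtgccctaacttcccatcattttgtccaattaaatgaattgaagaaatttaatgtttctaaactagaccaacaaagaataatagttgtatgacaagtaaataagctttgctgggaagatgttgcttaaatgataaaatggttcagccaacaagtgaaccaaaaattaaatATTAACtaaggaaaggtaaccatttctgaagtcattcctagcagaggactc
In both the core starts about 50 bases before the start of the gene, at -52 in FGA and -51 in FGB.

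AGR2, a disulfide isomerase of mucin-secreting cells, had 8.11, 8.12 and 8.05 with BB2-282 and 9.88, 9.62 and 9.63 in hypoxic vehicle (-1.62 ± 0.14). MUC5B, a secreted airway mucin, fell by 1.68 ± 0.20, opposite in direction to the membrane mucin MUC12. The histone gene H4C8 had 8.97, 9.21 and 8.67 with BB2-282 and 10.59, 11.22 and 10.19 in hypoxic vehicle (-1.71 ± 0.19). The other large falls were TM4SF20, a tetraspan membrane protein (-2.03 ± 0.22), SPX, the peptide hormone spexin (-1.77 ± 0.17), NTS, the peptide neurotensin (-1.62 ± 0.21), NOSTRIN, a trafficking protein of nitric oxide synthase (-1.59 ± 0.18), PIP, a secreted glycoprotein (-1.56 ± 0.15), and PON3, a lactonase (-1.53 ± 0.27). These genes too were taken from those whose groups did not overlap.

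Most genes of the HIF pathway that were singled out did not pass, and neither did most of all tested genes, of which 13.6% were called. VEGFA, the angiogenic factor, had 11.52, 11.57 and 11.55 with BB2-282 and 11.28, 11.54 and 11.43 in hypoxic vehicle, and the groups overlapped. Its change was 0.13 ± 0.11 (95% interval -0.10 to 0.36, adjusted p = 0.534). The glucose transporter gene SLC2A1 had a change of -0.05 (interval -0.28 to 0.18), the chemokine receptor gene CXCR4 0.20 (-0.08 to 0.48), and the growth factor receptor gene MET -0.34 (-0.74 to 0.06). For the HIF subunits the changes were -0.08 for HIF1A (-0.40 to 0.25), -0.09 for EPAS1 (-0.34 to 0.17) and 0.10 for ARNT (-0.13 to 0.32). The coactivator genes EP300 (0.33, -0.07 to 0.72) and CREBBP (0.27, -0.09 to 0.62), the gene CITED2 (-0.15, -0.38 to 0.09) and the receptor gene EGFR (0.10, -0.27 to 0.47) were not called either.

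LOX and EGLN3 were the panel genes that passed, in opposite directions. EGLN3, a prolyl hydroxylase that marks HIF alpha for degradation, had 9.36, 9.29 and 9.41 with BB2-282 and 10.43, 10.71 and 10.24 in hypoxic vehicle (-1.11 ± 0.12, adjusted p = 1.11e-05). Of 19 secreted and vascular HIF targets 2 rose and 2 fell (10.5% each, against 5.65% and 7.94% of all genes), with a median of 0.11. LOXL2, a relative of LOX, rose by 0.45 ± 0.11, and EDN1, which encodes endothelin 1, and IGFBP3, which binds insulin-like growth factors, fell by 0.67 ± 0.13 and 0.64 ± 0.13. The call of LOXL2 ended without replicate 1 of the hypoxic vehicle (adjusted p = 0.0596). Of 35 HIF targets in signalling, survival and transport 3 rose and 7 fell (8.57% and 20%), with a median of -0.03. The receptor gene VLDLR (0.65 ± 0.12) and ZNF395 (0.56 ± 0.09) rose, and the transferrin receptor gene TFRC fell (-0.89 ± 0.15). The number that fell was 4 without replicate 2 of BB2-282 and 2 without replicate 1 of the hypoxic vehicle. Among 25 genes of glucose uptake and glycolysis the calls were 2 rises and 1 fall (8% and 4%), and the median was -0.03. The fall was lost (0 falls) without any single array but replicate 3 of the hypoxic vehicle, where 2 fell, and 1 rise was left without replicate 3 of BB2-282 or replicate 1 of the hypoxic vehicle. In a fit of the 2 groups alone 3 rose and 3 fell.

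Inflammatory and matrix genes were called mostly upward. Where shares follow a list count, they give the tested members that rose and fell, against 5.65% and 7.94% of all genes. Rises were called for 11 and falls for 0 of 24 genes of NF-kB signalling and inflammation (45.8% and 0%, median 0.34). Beside ICAM1 they included TNFAIP2 (0.96 ± 0.12), the transcription factor IRF1 (0.83 ± 0.13) and the IkB-family regulator NFKBIZ (0.71 ± 0.11). IL1A, the cytokine interleukin 1 alpha, named after its value was seen, had 7.10, 6.99 and 7.45 with BB2-282 and 5.96, 6.18 and 5.84 in hypoxic vehicle (1.19 ± 0.20). The number that rose was 7 without replicate 3 of BB2-282 and 17 after quantile normalization. Of 12 chemokines 3 rose and 3 fell (25% each). The monocyte attractant CCL2 rose by 1.21 ± 0.15, whereas CCL20, at 8.06, 8.15 and 8.18 with BB2-282 and 9.38, 9.17 and 9.34 in hypoxic vehicle, fell by 1.17 ± 0.11. Of 20 interferon-stimulated genes 0 rose and 1 fell (0% and 5%), the antiviral gene OAS1 (-0.72 ± 0.13).

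Of 26 integrins, laminins and collagens 8 rose and 1 fell (30.8% and 3.85%), with a median of 0.28. The rises were led by the fibronectin receptor subunit ITGA5 (0.95 ± 0.17) and the basement membrane collagen genes COL4A2 (0.94 ± 0.11) and COL4A1 (0.68 ± 0.11). Of 26 TGF-beta response and mesenchymal transition genes 7 rose and 2 fell (26.9% and 7.69%). PMEPA1, a feedback inhibitor of TGF-beta signalling, and the matrix gene THBS1 rose by 0.84 ± 0.11 and 0.84 ± 0.14, and ID2, an inhibitor of basic helix-loop-helix factors, fell by 1.31 ± 0.16. Of 24 immediate-early genes 7 rose and 2 fell (29.2% and 8.33%). FOS had 7.58, 7.46 and 7.42 with BB2-282 and 8.74, 8.78 and 8.63 in hypoxic vehicle (-1.23 ± 0.16), while its partner gene JUNB rose by 0.51 ± 0.11. The number of immediate-early genes that rose was 4 without replicate 2 of BB2-282. Of 19 receptor kinase and ligand genes 3 rose and 1 fell (15.8% and 5.26%), among them HBEGF, a ligand of the EGF receptor, at 0.80 ± 0.13.

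Sterol genes had more rises than falls among their calls. Of 18 cholesterol synthesis and uptake genes 9 rose and 1 fell (50% and 5.56%), with a median of 0.37. STARD4, a sterol carrier, had 8.02, 8.19 and 8.03 with BB2-282 and 7.23, 6.97 and 7.13 in hypoxic vehicle (0.97 ± 0.12), and the synthesis enzymes DHCR7 (0.88 ± 0.12), CYP51A1 (0.59 ± 0.09) and FDPS (0.60 ± 0.12) rose with it. Of 20 fatty acid genes 6 rose and 0 fell (30% and 0%), with the desaturase FADS2 at 0.89 ± 0.11. That count of 6 was 1 without replicate 2 of BB2-282 or without replicate 1 of the hypoxic vehicle, and 2 without replicate 3 of BB2-282, without replicate 2 or 3 of the hypoxic vehicle, or after median centring.

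Nuclear genes of mitochondrial respiration and of the ribosome were called only downward. Of 29 respiratory chain and ATP synthase genes 0 rose and 11 fell (0% and 37.9%), with a median of -0.24. COX5B, a subunit of cytochrome c oxidase, had 10.54, 10.03 and 10.58 with BB2-282 and 11.60, 11.70 and 11.43 in hypoxic vehicle (-1.20 ± 0.15), and the complex I subunits NDUFB3, NDUFB5 and NDUFV2 fell by 0.99 ± 0.17, 0.98 ± 0.13 and 0.75 ± 0.11. Among 30 genes of cytosolic ribosomal proteins the calls were 0 rises and 12 falls (0% and 40%, median -0.23). RPS13 had 12.37, 12.16 and 12.48 with BB2-282 and 13.13, 13.04 and 12.99 in hypoxic vehicle (-0.72 ± 0.10), and RPL34 fell by 0.66 ± 0.12. The ribosomal count was 7 without replicate 1 or without replicate 2 of the hypoxic vehicle. After quantile normalization it was 8, with a median of -0.13. Of 31 ribosome biogenesis genes 0 rose and 5 fell (0% and 16.1%). That count ranged from 2 to 9 over the alternatives run: 2 without replicate 1 of BB2-282 or without replicate 1 or 2 of the hypoxic vehicle, and 3 without replicate 2 of BB2-282. Calls among 12 housekeeping genes were also only downward, with 0 rises and 2 falls (16.7%) and a median of -0.16. Their falls ranged from 1 to 3 over the alternatives.

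**Figure D4:**
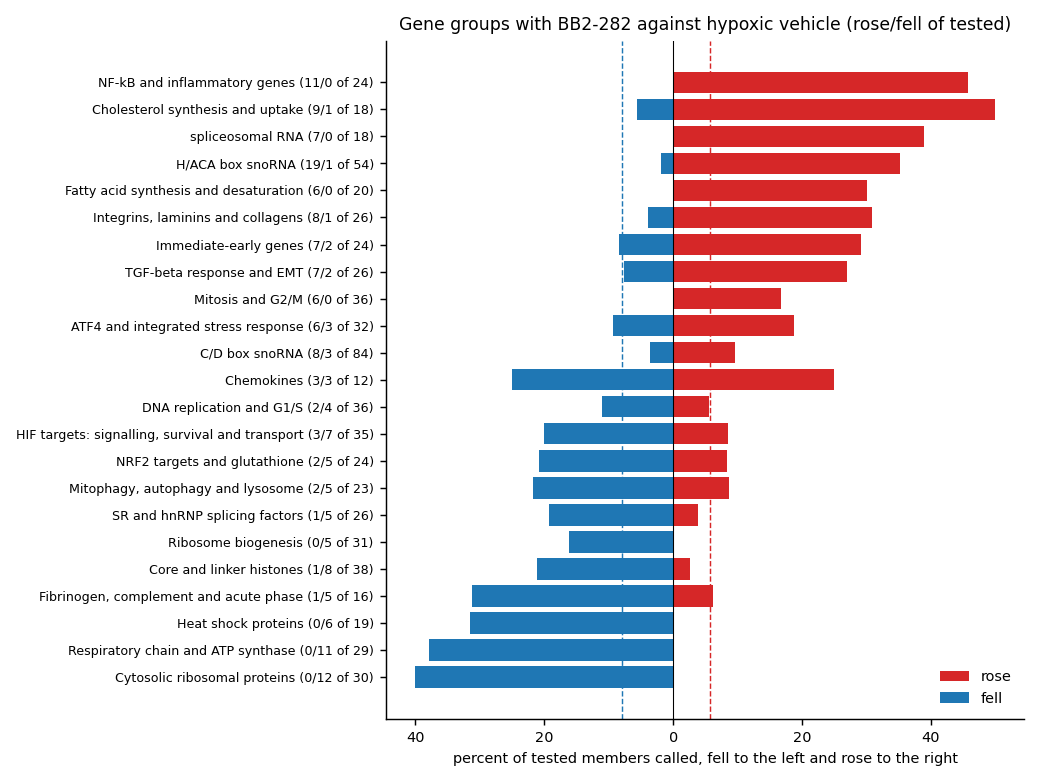
Share of the tested members of each gene group that were called, fell to the left and rose to the right, in percent, for groups with at least 5 called members; dashed lines mark 7.94% and 5.65%, the shares of all genes. Spliceosomal RNAs, H/ACA snoRNAs, NF-kB and cholesterol genes reach furthest to the right, and respiratory chain and ribosomal protein genes furthest to the left.

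Of 19 heat shock proteins 0 rose and 6 fell (0% and 31.6%), with a median of -0.18, including the mitochondrial chaperonin gene HSPE1 (-0.73 ± 0.13) and DNAJA1 (-0.67 ± 0.09). Of 23 endoplasmic reticulum chaperone and unfolded protein response genes 0 rose and 3 fell (0% and 13%), with the stress sensor ATF6 at -0.72 ± 0.14. The 32 targets and members of the ATF4 stress response gave 6 rises and 3 falls (18.8% and 9.38%). NUPR1, a stress-induced chromatin protein, rose by 0.95 ± 0.12. The 6 rises were 3 without replicate 3 of BB2-282. Of 24 NRF2 targets 2 rose and 5 fell (8.33% and 20.8%). The rises were HMOX1, the heme-degrading enzyme (1.07 ± 0.11), and TXNRD1, thioredoxin reductase (0.67 ± 0.11). The 5 that fell included GPX2, a glutathione peroxidase (-0.97 ± 0.16), and were 2 without replicate 1 of BB2-282 or replicate 2 of the hypoxic vehicle and 3 without replicate 2 of BB2-282, without replicate 1 of the hypoxic vehicle or after quantile normalization. Of 23 mitophagy, autophagy and lysosome genes 2 rose and 5 fell (8.7% and 21.7%). ULK1, the kinase that starts autophagy, and the protease gene CTSL rose by 1.05 ± 0.12 and 0.82 ± 0.12. ATG5, which joins the membrane conjugation step, fell by 0.56 ± 0.13. The 5 falls were 2 without replicate 1 of the hypoxic vehicle and 3 without replicate 2 or 3 of BB2-282 or replicate 2 of the hypoxic vehicle.

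The cell cycle lists were described separately for mitosis, DNA replication and histones. Of 36 mitosis genes 6 rose and 0 fell (16.7% and 0%), with a median of 0.16. Among the 6 were the spindle protein gene PRC1 (0.61 ± 0.12), CENPF (0.73 ± 0.14) and the transcription factor FOXM1 (0.58 ± 0.12). That count was 3 without replicate 2 of BB2-282. Of 36 DNA replication genes 2 rose and 4 fell (5.56% and 11.1%, against 5.65% and 7.94% of all genes), with a median of 0.02, and the sliding clamp gene PCNA had 7.81, 7.79 and 7.62 with BB2-282 and 8.93, 8.66 and 8.66 in hypoxic vehicle (-1.01 ± 0.11). The 4 falls were 2 without replicate 1 of BB2-282 or of the hypoxic vehicle. The 2 rises were 1 without any single array but replicate 3 of the hypoxic vehicle, and 1 with no filter on dim genes, median centring, quantile normalization, a pseudocount of 16 or the replicate block. Of 38 core and linker histones 1 rose and 8 fell (2.63% and 21.1%), with a median of -0.24. Beside H4C8 the falls included H1-4 (-1.07 ± 0.18) and H2BC4 (-0.77 ± 0.12). Histone copies resemble each other, so values of single copies are uncertain. Of 28 p53 targets 4 rose and 0 fell (14.3% and 0%), with the death receptor gene FAS at 0.83 ± 0.11 and ZMAT3 at 0.66 ± 0.12.

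The other lists held few called genes each, but some shares were above the 5.65% that rose and 7.94% that fell over all genes. Of 18 MAPK feedback genes 3 rose (16.7%), among them SPRY4, an inhibitor of receptor signalling (0.69 ± 0.15), and 0 fell. Of 15 iron genes 1 rose and 3 fell (6.67% and 20%), with CP and TFRC as the falls of lowest p. Of 13 MYC network genes MNT, a repressor that pairs with MAX, rose by 0.87 ± 0.13 and 1 fell. Of 21 transcription elongation genes POLR2A, the large subunit of RNA polymerase II, rose by 0.74 ± 0.15 and 0 fell. The zinc exporter gene SLC30A1 (0.80 ± 0.11) was the single rise among 11 zinc response genes, and ALDH3A1, an aldehyde dehydrogenase (0.53 ± 0.11), the single rise among 9 aryl hydrocarbon receptor targets. Of 26 splicing factor genes 1 rose and 5 fell (3.85% and 19.2%). Those 5 falls were 2 without replicate 1, 1 without replicate 2 and 3 without replicate 3 of BB2-282, and 1 without replicate 1 and 2 without replicate 2 of the hypoxic vehicle. Counted once each, 92 of the 798 tested genes on the 39 lists rose and 98 fell (11.5% and 12.3%).

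BB2-282 was then set against BB2-125 and against BB2-162, each at 10 µM for the same time in hypoxia, with p-values adjusted over both pairs together. Against BB2-125 5810 genes were called (36.3%), 2820 higher (17.6%) and 2990 lower (18.7%) with BB2-282. Against BB2-162 5745 genes were called (35.9%), 3249 higher (20.3%) and 2496 lower (15.6%). The share called higher was 56.6% here and 67.0% after each array was centred on its median. Without replicate 1 of BB2-162, which stood apart, 6948 genes were called.

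LOX stood lowest with the other compounds among the hypoxic groups, at 5.98, 5.73 and 5.99 with BB2-125 and 5.44, 5.60 and 5.59 with BB2-162. It was higher with BB2-282 by 3.46 ± 0.16 than with BB2-125 (interval 3.14 to 3.79) and by 3.82 ± 0.16 than with BB2-162 (3.49 to 4.15), and by 3.77 without BB2-162 replicate 1. EGFR had 9.98, 10.11 and 10.53 with BB2-282, against 7.27, 7.86 and 7.41 with BB2-125 and 6.90, 6.57 and 6.63 with BB2-162. The differences were 2.69 ± 0.17 and 3.50 ± 0.17. PDGFB (2.75 and 2.08) and HOXD10 (2.88 and 2.67) were also higher with BB2-282 in both pairs.

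Of the HIF pathway, EGLN3 was higher with BB2-282 than with BB2-125 (1.04 ± 0.12) and BB2-162 (1.28 ± 0.12). MET (1.45 and 1.21), EP300 (1.30 and 1.07) and CREBBP (1.41 and 1.36) were higher in both pairs as well. VEGFA was higher by 1.01 ± 0.11 than with BB2-125, but its difference from BB2-162 was 0.19 ± 0.11 (interval -0.04 to 0.42, adjusted p = 0.204). CXCR4 gave 1.16 ± 0.13 against BB2-125 and 0.07 ± 0.13 against BB2-162 (-0.21 to 0.35, adjusted p = 0.729). HIF1A was lower with BB2-282 by 0.70 and 1.36 on the log2 scale.

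**Figure D5:**
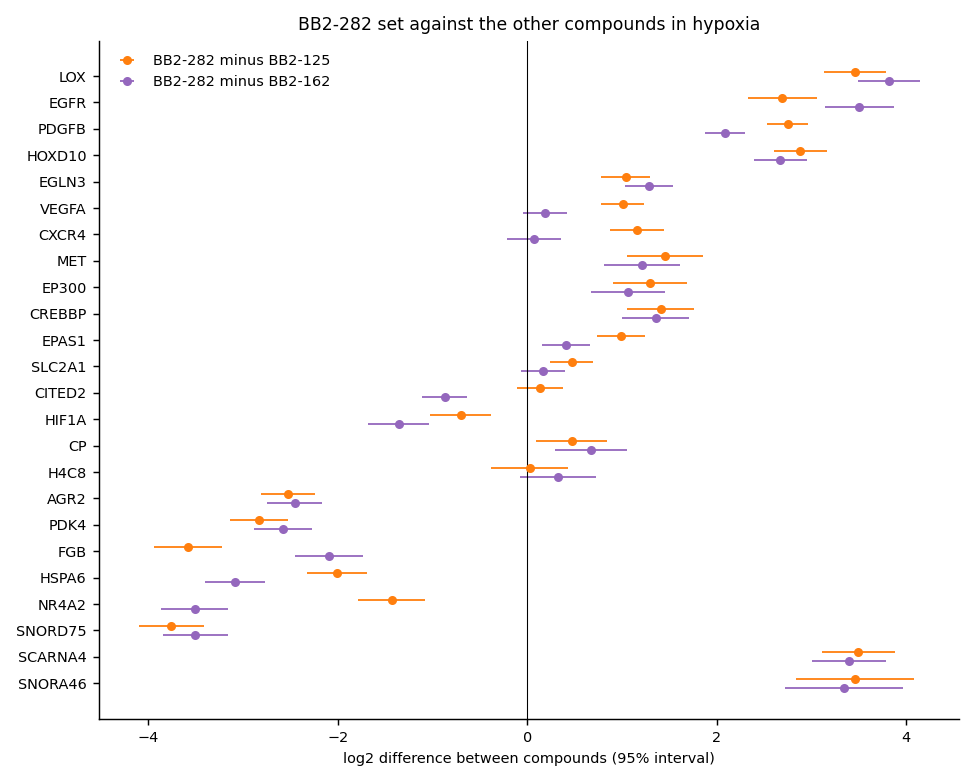
Difference between BB2-282 and each of the other compounds in hypoxia for 24 genes, as log2 difference with its 95% interval. LOX, SCARNA4 and SNORA46 lie above 3 in both pairs and SNORD75 below -3 in both, while the intervals of H4C8 reach across 0 in both pairs.

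Several genes were lower with BB2-282 than with either compound. SNORD75, lower with BB2-282 than in vehicle, stood at 10.29, 9.85 and 9.99 with BB2-125 and at 9.93, 9.86 and 9.57 with BB2-162, so the differences were -3.76 ± 0.16 and -3.50 ± 0.16. FGB (-3.58 ± 0.17 and -2.09 ± 0.17), AGR2 (-2.52 and -2.45) and PDK4, a kinase that shuts pyruvate dehydrogenase (-2.83 and -2.58), followed. The heat shock gene HSPA6 had 5.89, 5.43 and 5.96 with BB2-282, against 7.75, 7.72 and 7.84 with BB2-125 and 8.87, 8.77 and 8.89 with BB2-162. NR4A2, an orphan nuclear receptor, was lower by -1.43 ± 0.17 and -3.51 ± 0.17.

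Some genes that fell with BB2-282 gave small differences between compounds. For H4C8 the difference was 0.02 from BB2-125 (interval -0.38 to 0.43) and 0.32 from BB2-162 (-0.08 to 0.73). For PIP it was 0.16 (-0.15 to 0.48) and 0.13 (-0.18 to 0.45). These intervals leave room for differences of up to 0.73 in H4C8 and 0.48 in PIP. Of the small RNA genes with the largest rises, SCARNA4 was higher than with BB2-125 and BB2-162 by 3.50 ± 0.19 and 3.39 ± 0.19 and SNORA46 by 3.46 ± 0.29 and 3.34 ± 0.29.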

How the data were processed

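RNA of 15 A549 cultures (5 groups of 3) was read on a whole-transcript expression array. The authors deposited 1 intensity per probe set and array on a linear scale. RMA, a method of background correction, normalisation between arrays and probe summary, is named in the submitters' processing notes, and its software and version were not given in the sources. Here log2 of each deposited intensity was taken with no pseudocount. Of 28869 probe sets 19310 had 1 gene symbol, 1752 several and 7807 none listed here. The probe set with the highest mean stood for each of 18377 genes, and 2372 genes that did not exceed the array's own 25th percentile on at least 3 arrays were removed, which left 16005. Where a group's mean lay below that percentile, the change was also counted from it.

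A single limma fit of group means over all 15 arrays gave the changes (limma 3.58.1 under R 4.3.3; 10 residual and 7.96 prior degrees of freedom), with Benjamini-Hochberg adjustment. The fit was tested on simulated data. The members and the gene lists, which hold 901 genes from textbook knowledge, were chosen with earlier results of these data known, so they are described by counts and medians and not tested.

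Genes were named by a rule: from called genes with no overlap between groups, the 12 largest changes each way outside the small RNA classes, the 5 largest each way within them, up to 4 called members of lowest p of each list, a fixed panel of HIF-related genes and the 4 largest differences each way of each compound pair. Additions are marked. Genes of the compound figure were chosen after their values were seen. No 2 arrays were identical. Alternatives were no or a stricter filter on dim genes, median centring, quantile normalization, an intensity trend or robust moderation, averaged probe sets, a pseudocount of 16, a replicate block, a fit of the groups compared alone and each array left out in turn. Precision is limited by 3 arrays per group. Sequences came from RefSeq tables of GRCh38.p14. No scan batch was given.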

Additional observations from a re-analysis of the deposited data

Results flagged for a closer look

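Probe sets with no single gene symbol were left out of the gene-level comparison and carried signal as well. Of 5691 such probe sets that passed the same filter, 228 rose and 305 fell with BB2-282 against hypoxic vehicle (9.37% called, against 13.6% of named genes), with changes from -1.77 to 3.12 on the log2 scale. They are flagged because they lie outside the main measurement, and their identity was not analysed here.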

How the results depend on the processing

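The count of 2176 called genes ranged from 1909 to 2457 over the settings that kept all arrays, with 1909 after median centring, and from 1222 to 2393 when each array was left out. With 1 array left out, 4935 to 5406 genes were called against BB2-125, 4512 to 6948 against BB2-162 and 7903 to 8948 for hypoxic against normoxic vehicle. The 49 called small noncoding RNA genes became 75 in a fit of the 2 groups alone and 39 to 51 with 1 array left out. Called list genes (190) ranged from 128 to 195, and risen H/ACA genes (19) from 16 to 21, with 1 array left out. Among 192 named values 179 were called, and 144 of these kept their call under each alternative run. Of 3068 single comparisons 120 lost a call. In 0 of them did a value called in the main fit or the alternative change sign. The replicate number as a block gave 2112 called genes against 2176 without it. Same-number arrays of BB2-282 and hypoxic vehicle did not deviate together (correlations -0.31 to -0.04). The labels do not say whether same-number cultures were made together, and these few correlations cannot settle it. Single dim genes such as RNU5D-1 and MIR103A2 have changes that are limited by signal near background.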
